A study of Mus musculus with 12 samples.

Results

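R-spondin genes, the Lgr genes that encode their receptors, and the genes of the membrane ubiquitin ligases that R-spondins neutralise were followed in whole lungs of newborn mice given lipopolysaccharide (LPS), a bacterial endotoxin. They were Rspo1, Rspo2, Rspo3 and Rspo4, Lgr4, Lgr5 and Lgr6, and Znrf3 and Rnf43. These 9 genes were found by symbol among the 52550 genes of the count table, and all 9 passed the filter on low counts that left 15885 protein-coding genes for testing. The set was chosen by the fall of Rspo2 after LPS, one of the largest in the table, so all differences in Rspo2 between groups are given as a description, without a test, and the tests concern the other 8 genes.

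Each of 4 groups held 3 lungs, with 1 library for each mouse, all C57Bl/6J mice on postnatal day 5. WT mice (Adm+/+) and Adm+/- mice, which have 1 functional copy of the adrenomedullin gene in every cell, received 3 daily intraperitoneal doses of either PBS or 6 mg/kg of E. coli O55:B5 LPS from postnatal day 3, and lungs were collected 6 h after dose 3. The Adm+/- line came from a 129/SvEv background and was backcrossed to C57BL/6J for several generations, and mice that lack both copies die as embryos, so a partial loss is the only one this model allows. Libraries are named by group and by the library number of the labels: WT PBS 3, 4 and 5, WT LPS 9, 10 and 11, Adm+/- PBS 6, 7 and 8, and Adm+/- LPS 1, 2 and 12.

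R-spondins are secreted proteins that strengthen Wnt signalling. Znrf3 and Rnf43 are transmembrane ubiquitin ligases that remove Frizzled receptors from the cell surface, and an R-spondin that bridges one of them to Lgr4, Lgr5 or Lgr6 takes the ligase off the membrane, so that more Wnt receptor stays in place. Rspo2 and Rspo3 can also act on the ligases without an Lgr receptor, through heparan sulfate proteoglycans. In the lung, Rspo2 is made by mesenchymal cells and is needed for normal branching of the embryonic airways, and Lgr5 and Lgr6 mark separate mesenchymal cells of the adult organ. Znrf3, Rnf43, Lgr5 and Axin2 are themselves switched on by beta-catenin in many tissues.

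The genes lie apart in the genome (mm10, Gencode M21). Rspo1 is at chr4:124986430-125009099 on the plus strand, Rspo2 at chr15:43020794-43170826 on the minus strand, Rspo3 at chr10:29452416-29535867 on the minus strand and Rspo4 at chr2:151842927-151874668 on the plus strand. The receptor genes are at chr2:109917647-110014257 on the plus strand (Lgr4), chr10:115450311-115587780 on the minus strand (Lgr5) and chr1:134983301-135105276 on the minus strand (Lgr6). Both ligase genes are on chromosome 11, Znrf3 at chr11:5276324-5444847 on the minus strand and Rnf43 at chr11:87662722-87735539 on the plus strand. Among the 9 genes, Rspo3 alone shares exon bases with another annotated gene, an antisense RNA named Gm48159, and its reads may hold some of that RNA, since the strand setting of the counting is not given in the sources used here. Other genes that lie inside the members touch introns only.

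Promoter windows of RefSeq (GRCm38.p6) were matched for 5 of the 9 genes, Rspo1, Rspo4, Lgr4, Lgr6 and Rnf43, with 6 windows in all. Of these, 4 moved past the threshold in the comparisons below. The 250 bases before the start are shown for Rspo4 and Lgr6, which fell, and for Lgr4, which rose, and capitals mark each CG dinucleotide. Rnf43, the other one, is not shown because both of its windows lie inside the gene as Gencode places it.
Rspo4, chr2:151842677-151842926, plus strand: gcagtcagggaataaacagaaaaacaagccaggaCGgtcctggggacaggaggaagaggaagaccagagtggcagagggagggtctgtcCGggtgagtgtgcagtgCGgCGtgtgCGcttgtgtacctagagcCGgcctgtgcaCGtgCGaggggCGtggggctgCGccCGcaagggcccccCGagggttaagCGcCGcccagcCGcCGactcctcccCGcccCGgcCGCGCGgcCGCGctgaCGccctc
Lgr6, chr1:135105277-135105526, minus strand: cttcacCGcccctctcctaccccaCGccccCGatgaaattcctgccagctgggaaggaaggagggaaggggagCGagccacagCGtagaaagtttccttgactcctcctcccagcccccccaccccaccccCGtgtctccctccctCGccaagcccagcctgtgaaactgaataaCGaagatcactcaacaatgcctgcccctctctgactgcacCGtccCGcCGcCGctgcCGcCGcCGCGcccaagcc
Lgr4, chr2:109917397-109917646, plus strand: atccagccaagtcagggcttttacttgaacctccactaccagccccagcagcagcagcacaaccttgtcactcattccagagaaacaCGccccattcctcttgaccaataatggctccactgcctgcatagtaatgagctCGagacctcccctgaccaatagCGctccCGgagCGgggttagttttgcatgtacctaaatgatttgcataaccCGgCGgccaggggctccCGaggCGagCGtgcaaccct

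The Rspo4 stretch held 24 CG dinucleotides, the Lgr6 stretch 16 and the Lgr4 stretch 10, whereas the corresponding stretches of Rnf43 held 8 and 2, beside a median of 6 and an upper quartile of 16 over the 32851 windows of the table. Over the whole window of 300 bases, GC content was 71% for Rspo4, 67.7% for Lgr6, 58.3% for Lgr4, and 46.7% and 44.3% for Rnf43. None of the 6 windows of the members held, on either strand, the TCF/LEF core CTTTGA, which 16% of all windows held, the AP-1 motif TGANTCA (7.81%) or the TATA box TATAAA (13.6%). These letters were absent from the windows, which says nothing of the factors that bind them.

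Total counts ranged from 22382535 to 38062873 per library. WT PBS 5 and Adm+/- PBS 6 stood apart from the rest, with 16.6% and 13.3% of counts on the single noncoding gene Gm26917 against 5.42% to 7.40% in the other 10 libraries, and WT LPS libraries held RNA of tissues other than lung parenchyma, described beside the receptors. Neutrophil markers, led by S100a9 and S100a8, summed to between 26.0 and 129 CPM (counts scaled to library size by TMM) in the PBS libraries. They summed to between 1069 and 1915 CPM in the LPS libraries. The 129 CPM was that of WT PBS 4, and the next highest PBS sum was 41.9 CPM, in Adm+/- PBS 6. The lung label fitted the data, since the type II pneumocyte markers, led by Sftpc and Sftpb, summed to at least 11211 CPM in every library.

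Adm, the targeted gene (chr7:110627661-110629820, plus strand), was measured at 3.96, 7.09 and 4.57 CPM in WT PBS 3, 4 and 5, at 7.77, 8.15 and 4.46 CPM in WT LPS 9, 10 and 11, at 4.58, 2.87 and 3.62 CPM in Adm+/- PBS 6, 7 and 8, and at 3.74, 6.28 and 3.92 CPM in Adm+/- LPS 1, 2 and 12. The genotypes overlapped under both treatments. The mean was lower in Adm+/- mice by a log2 difference of -0.50 ± 0.32 (SE, n = 3 against 3, edgeR adjusted p = 0.999) under PBS and of -0.55 ± 0.31 (adjusted p = 0.48) under LPS, so the counts of this gene do not by themselves separate the genotypes.

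Levels of different genes were set side by side as CPM per kb of exon. In the 6 PBS lungs the order was Znrf3 (9.45 ± 0.93, SD), Lgr6 (7.56 ± 1.11), Rnf43 (5.63 ± 0.97), Rspo4 (4.33 ± 0.84), Rspo1 (3.08 ± 0.82), Rspo2 (2.97 ± 0.90), Lgr4 (2.58 ± 0.29), Lgr5 (0.129 ± 0.051) and Rspo3 (0.125 ± 0.037). The ranges of neighbours in this order overlapped except between Lgr4 and Lgr5. Within a library, Rnf43 was above Rspo4 and Rspo4 above Rspo1 in all 6, whereas Rspo1 was above Rspo2 in only 4 of 6 and Rspo2 above Lgr4 in 4 of 6, so the places of Rspo1, Rspo2 and Lgr4 could not be told apart. Rspo3 was far below the other R-spondin transcripts in these lungs, and Lgr6 rather than Lgr5 was the leading receptor transcript. In the 6 LPS lungs Rspo2 had moved to the eighth place at 0.269 ± 0.229 CPM per kb, between Rspo3 (0.328 ± 0.095) and Lgr5 (0.227 ± 0.136), and its range overlapped with those of both neighbours.

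**Figure D1:**
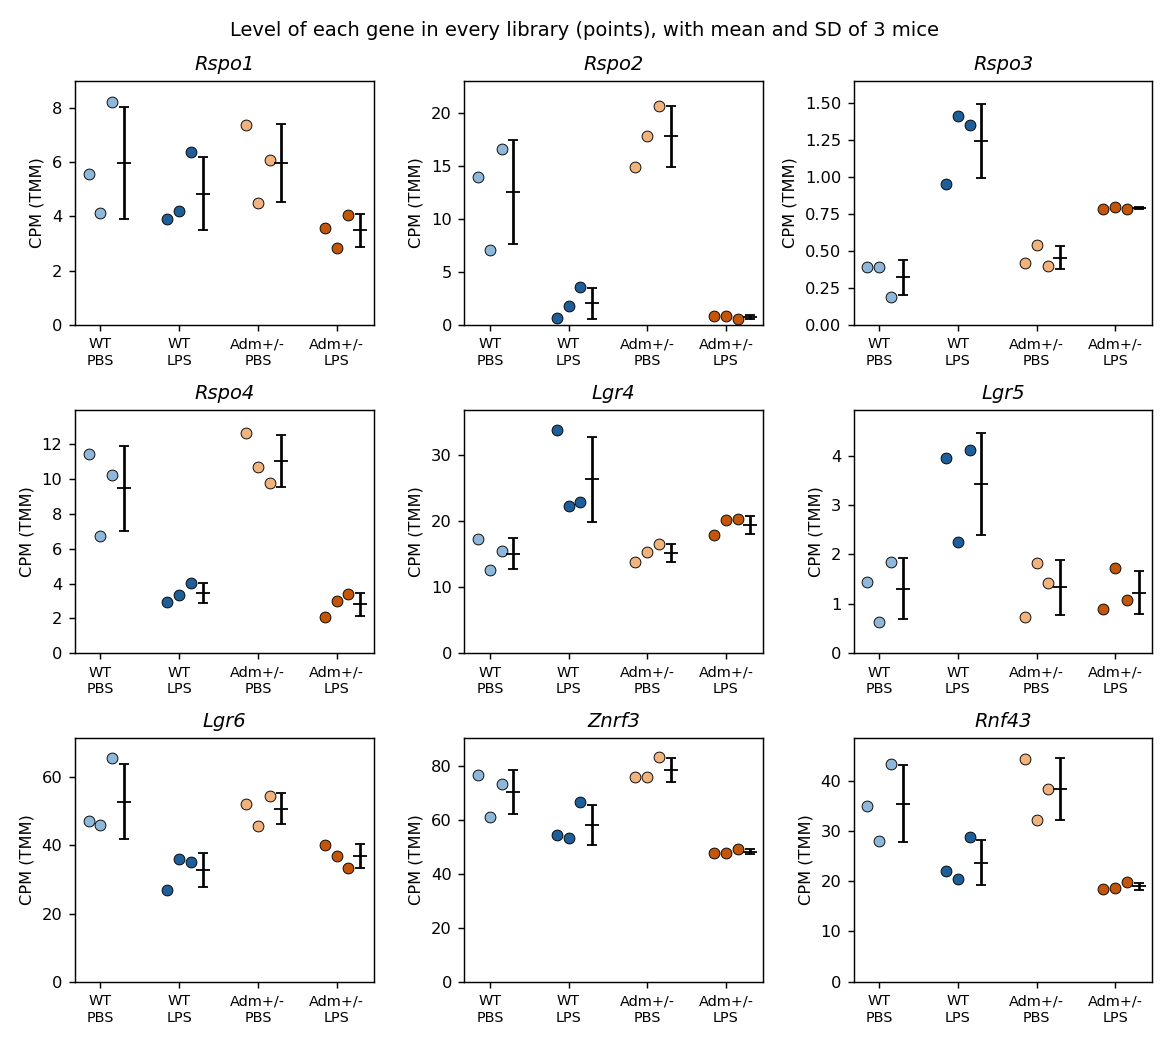
Level of each of the 9 genes in every library, in CPM after TMM normalization on a linear axis from 0, with 1 point for each of the 3 mice of a group and the mean and SD beside them. All 6 Rspo2 points after LPS sit between 0.534 and 3.58 CPM, below all 6 PBS points, which sit between 7.09 and 20.7 CPM, and the WT LPS points of Lgr4 and Lgr5 lie above those of every other group.

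Rspo2 was the R-spondin with the widest change. It measured 13.9, 7.09 and 16.6 CPM in WT PBS 3, 4 and 5 and 0.678, 1.79 and 3.58 CPM in WT LPS 9, 10 and 11. Adm+/- lungs measured 14.9, 17.8 and 20.7 CPM in PBS 6, 7 and 8 and 0.823, 0.838 and 0.534 CPM in LPS 1, 2 and 12. LPS and PBS lungs did not overlap in either genotype, and the Adm+/- LPS lungs lay close together whereas the WT LPS lungs were spread widely. The counts behind the LPS values were 22 to 90 in WT and 15 to 22 in Adm+/- lungs. The fitted log2 fold change was -2.65 in WT mice, from a mean of 12.5 ± 4.89 to 2.02 ± 1.47 CPM (SD, n = 3), which is 6.28-fold lower. For Adm+/- mice it was -4.60, from 17.8 ± 2.89 to 0.732 ± 0.171 CPM, which is 24.3-fold lower. By fitted fold change it had the 13th lowest value of 15885 genes in WT and the 6th lowest in Adm+/- mice, which describes the choice of the gene and supports nothing further.

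The gap between the genotypes in Rspo2 varied with single libraries. The LPS effect was larger in Adm+/- mice by -1.95 on the log2 scale, and without WT LPS 11, which had the highest LPS value, the WT change was -3.37 and the gap -1.23. Without WT LPS 9, which had the lowest WT LPS value, they were -2.22 and -2.38. Under LPS alone, Rspo2 in Adm+/- lungs was lower than in WT lungs by a log2 difference of -1.44, with overlapping groups, and this value was -0.72 without WT LPS 11 and -1.87 without WT LPS 9. Under PBS the difference was 0.51, and 0.23 without WT PBS 4.

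In whole tissue, fewer cells of a type and less RNA in each cell cannot be told apart. Lung fibroblast markers, led by Col1a1 and Col3a1, summed to between 18474 and 46514 CPM in WT PBS and between 12760 and 17348 CPM in WT LPS, and to between 17962 and 30909 CPM in Adm+/- PBS and between 14125 and 15938 CPM in Adm+/- LPS. The highest PBS values were those of WT PBS 5 and Adm+/- PBS 6, the libraries that stood apart, and without them the highest were 19063 and 18932 CPM. Of the 9 markers 1 fell in WT and 2 in Adm+/- mice, with median log2 changes of -0.37 and -0.57, and of the 8 alveolar myofibroblast markers, led by Eln and Tgfbi, 1 and 3 fell, with medians of -0.27 and -0.25. Over all tested genes 7.09% fell in WT and 12.2% in Adm+/- mice. The summed level of the myofibroblast markers overlapped between PBS and LPS lungs in both genotypes: its median was 7192 CPM in WT PBS (6542 to 13887) and 7124 CPM in WT LPS (6407 to 7346), and it was 6349 CPM in Adm+/- PBS (6219 to 8120) and 7760 CPM in Adm+/- LPS (6163 to 9196). Smooth muscle markers, led by Acta2 and Myh11, summed to 1181 to 1473 CPM in WT PBS and 983 to 1489 CPM in WT LPS. In Adm+/- mice they summed to 1111 to 1396 CPM in PBS and 892 to 1144 CPM in LPS lungs. These ranges overlapped in both genotypes, and of the 8 markers 0 fell in WT and 1 in Adm+/- mice. The sums of other cell types moved as well. Pericyte markers, led by Notch3 and Pdgfrb, were lower after LPS in WT mice, at 916 to 1391 CPM in PBS and 758 to 803 CPM in LPS lungs, while the Adm+/- ranges of 945 to 1235 and 824 to 971 CPM overlapped, and 2 of the 7 fell in WT and 0 in Adm+/- mice, where 1 rose. Endothelial markers, led by Cdh5 and Pecam1, were lower in both genotypes, at 2805 to 3324 against 2335 to 2467 CPM in WT and 2927 to 3213 against 2633 to 2921 CPM in Adm+/- mice, and 2 of 8 fell in each. Ciliated and club cell markers, led by Scgb1a1 and Scgb3a2, were higher in both, at 1385 to 2382 against 2490 to 2756 CPM in WT and 1319 to 2144 against 2581 to 2926 CPM in Adm+/- mice, although 1 of 7 rose in WT and 0 rose and 1 fell in Adm+/- mice. Monocyte and macrophage markers, led by Csf1r and Mrc1, were higher too, at 190 to 230 CPM in the PBS and 358 to 616 CPM in the LPS libraries, beside the neutrophil markers given above. The part of these cell types in the Rspo2 values was not tested.

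Among the other 8 genes, 3 rose and 3 fell past the threshold in WT mice, which asked for an adjusted p under 0.05 together with a log2 change of over 0.5 in either direction, and 0 rose and 3 fell in Adm+/- mice. Over all tested genes, 17.6% were past it in WT mice (10.5% higher and 7.09% lower) and 25% in Adm+/- mice (12.8% higher and 12.2% lower). The median log2 fold change of the 8 genes was -0.29 in WT and -0.58 in Adm+/- mice, beside 0.01 and -0.01 over all tested genes. At an unadjusted p below 0.05 there were 7 of the 8 genes in WT and 6 in Adm+/- mice, beside 36.7% and 41.8% of all tested genes. LPS and PBS lungs did not overlap for 5 of the 8 genes in WT mice, 2 lower and 3 higher after LPS, beside 36.2% of all tested genes (17.9% lower and 18.3% higher). Between the Adm+/- groups 7 of the 8 did not overlap, 5 lower and 2 higher, beside 53.7% (27.1% lower and 26.6% higher). In WT mice the count of called genes was the less stable: it was 1 when WT LPS 9 and 11 were both left out and 3 when WT LPS 9 alone was.

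Of the other ligands, Rspo4, which is known for its role in nail growth, fell in both genotypes. It measured 11.4, 6.75 and 10.3 CPM in WT PBS 3, 4 and 5 against 2.93, 3.33 and 4.06 CPM in WT LPS 9, 10 and 11, and 12.7, 10.7 and 9.78 CPM in Adm+/- PBS 6, 7 and 8 against 2.09, 2.97 and 3.38 CPM in Adm+/- LPS 1, 2 and 12. No LPS lung reached a PBS lung. The log2 fold change was -1.46 ± 0.24 (SE, adjusted p = 0.00193) in WT and -1.97 ± 0.24 (adjusted p = 0.000202) in Adm+/- mice. The WT value missed the threshold, at -1.51 with an adjusted p of 0.054, when WT LPS 9 and 11 were both left out.

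Rspo3, which is best known from endothelial cells and blood vessel growth, went the other way. It rose in WT mice from 0.388, 0.388 and 0.185 CPM in PBS 3, 4 and 5 to 0.955, 1.41 and 1.35 CPM in LPS 9, 10 and 11, a log2 fold change of 1.89 ± 0.32 (adjusted p = 0.00229). In Adm+/- mice it measured 0.421, 0.541 and 0.398 CPM in PBS 6, 7 and 8 and 0.785, 0.796 and 0.784 CPM in LPS 1, 2 and 12, without overlap, and the change of 0.78 ± 0.31 missed the threshold (adjusted p = 0.0736). These are low levels, with 3 to 16 counts per PBS library and 19 to 34 per LPS library. The WT rise was past the threshold in all 22 alternatives that gave a value. It was 2.08 without WT LPS 9 and 11, which leaves WT LPS 10 as the only LPS lung of its genotype. WT LPS 10 also held the most skeletal muscle RNA, with markers summing to 4480 CPM. The part of other tissues in the Rspo3 values was not tested.

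Rspo1, a regulator of ovary development, did not pass the test in either genotype. It measured 5.55, 4.13 and 8.22 CPM in WT PBS 3, 4 and 5 and 3.91, 4.20 and 6.37 CPM in WT LPS 9, 10 and 11, which overlap, and its log2 change was -0.30 ± 0.29 (adjusted p = 0.473). In Adm+/- mice it measured 7.36, 4.49 and 6.08 CPM in PBS 6, 7 and 8 and 3.55, 2.85 and 4.06 CPM in LPS 1, 2 and 12, without overlap, with a change of -0.77 ± 0.29 (adjusted p = 0.0645), which passed the threshold by DESeq2 (adjusted p = 0.0404), with only the libraries of the comparison (0.026), without WT PBS 5 (0.0323) and without Adm+/- PBS 7 (0.0464).

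The make-up of the R-spondin transcripts changed accordingly. Summed over the 4 genes per kb of exon, the level was 9.63 ± 2.80 CPM per kb (SD, n = 3) in WT PBS and 4.74 ± 1.26 in WT LPS, and 11.4 ± 0.86 in Adm+/- PBS and 3.39 ± 0.43 in Adm+/- LPS. Rspo2 made up 24.9% ± 3.1 of this sum in WT PBS and 7.67% ± 3.93 in WT LPS, and 30.8% ± 6.1 and 4.35% ± 1.43 in the Adm+/- groups. Rspo1 took 31.9% ± 4.3 under PBS and 52.6% ± 2.7 under LPS in WT mice, and 26.9% ± 4.5 and 53.1% ± 6.0 in Adm+/- mice, so that a gene which did not pass the test became the leading R-spondin transcript after LPS. Rspo3 remained minor, at 8.65% ± 1.68 in WT LPS and 7.61% ± 0.93 in Adm+/- LPS. These shares are a description, since they contain Rspo2.

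**Figure D2:**
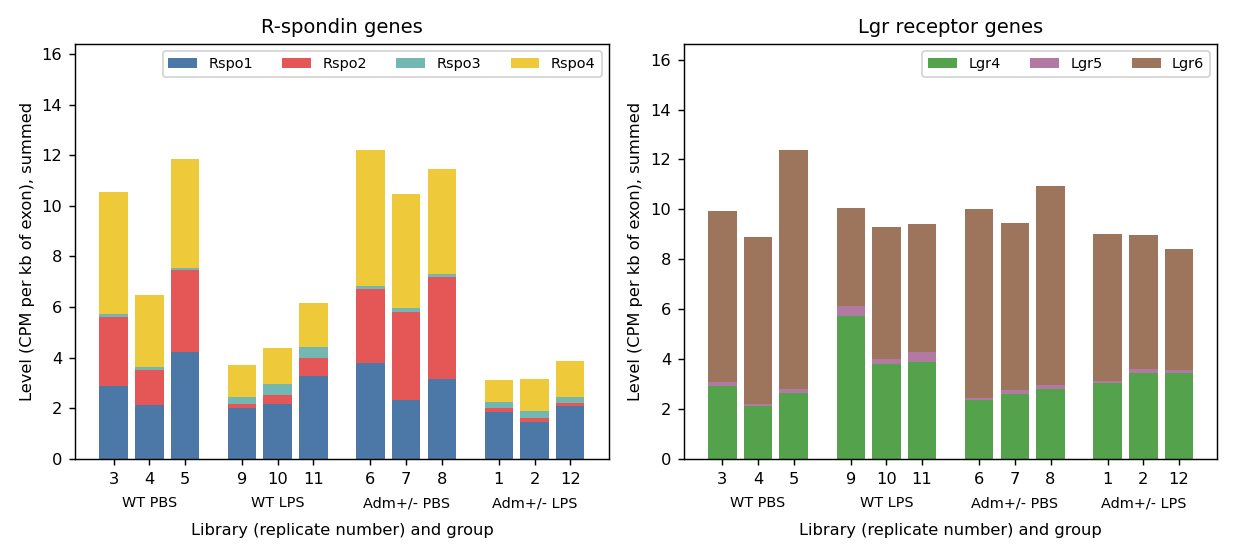
Summed level of the R-spondin genes (left) and of the Lgr genes (right) in each library, in CPM per kb of exon, with 1 bar per library and the genes stacked from 0. The R-spondin bars of LPS lungs, at 3.13 to 6.14 CPM per kb, are lower than those of PBS lungs, at 6.49 to 12.2, whereas the Lgr bars span 8.42 to 12.4 over all 12 libraries, with overlap between WT PBS and WT LPS and none between Adm+/- PBS (9.45 to 10.9) and Adm+/- LPS (8.42 to 8.999).

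The receptors moved in opposite directions in WT mice. Lgr6, the most abundant of them, fell from 47.1, 45.9 and 65.5 CPM in WT PBS 3, 4 and 5 to 27.0, 36.1 and 35.2 CPM in WT LPS 9, 10 and 11, without overlap, a log2 fold change of -0.69 ± 0.16 (adjusted p = 0.0119). This call did not hold without WT LPS 9, with -0.57 and an adjusted p of 0.0572. Lgr6 in Adm+/- mice measured 52.0, 45.7 and 54.6 CPM in PBS 6, 7 and 8 and 40.2, 36.99 and 33.4 CPM in LPS 1, 2 and 12, also without overlap. Its change of -0.46 ± 0.16 had an adjusted p of 0.0474 and did not reach the fold that was asked for.

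Lgr4, the receptor with the broadest expression among tissues, rose in WT mice. It measured 17.2, 12.6 and 15.4 CPM in PBS 3, 4 and 5 and 33.8, 22.4 and 22.9 CPM in LPS 9, 10 and 11, a log2 fold change of 0.80 ± 0.18 (adjusted p = 0.00893). The Adm+/- values were 13.8, 15.3 and 16.5 CPM in PBS 6, 7 and 8 and 17.9, 20.2 and 20.3 CPM in LPS 1, 2 and 12, which do not overlap, with a change of 0.35 ± 0.18 (adjusted p = 0.153).

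Lgr5, a marker of stem cells in the gut and the hair follicle, rose in WT mice from 1.44, 0.631 and 1.85 CPM in PBS 3, 4 and 5 to 3.94, 2.25 and 4.10 CPM in LPS 9, 10 and 11. The log2 fold change was 1.40 ± 0.43 (adjusted p = 0.038). Adm+/- PBS lungs measured 0.736, 1.82 and 1.43 CPM in 6, 7 and 8 and LPS lungs 0.898, 1.72 and 1.07 CPM in 1, 2 and 12, which overlap, with a change of -0.15 ± 0.44 (adjusted p = 0.833). The WT call for Lgr5 was lost on leaving out WT PBS 3 (adjusted p = 0.0619), WT PBS 4 (0.0993), WT LPS 9 (0.127), WT LPS 11 (0.0927), Adm+/- PBS 8 (0.0549) or Adm+/- LPS 12 (0.0559).

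Markers of other tissues moved with Lgr4 and Lgr5 in the WT LPS lungs. Squamous epithelium markers, led by Krt4 and Krt13, summed to 2987, 25.4 and 1524 CPM in WT LPS 9, 10 and 11, to between 0.922 and 4.08 CPM in WT PBS, to between 0.875 and 1.21 CPM in Adm+/- PBS and to between 4.42 and 40.7 CPM in Adm+/- LPS. All 7 tested members of that list of 9 rose in WT mice and 0 passed the test in Adm+/- mice, and Sprr1a, Sprr3 and Tmprss11b were at 0 in every WT PBS library. Skeletal muscle markers, led by Ttn and Acta1, summed to 3438, 4480 and 1996 CPM in WT LPS 9, 10 and 11 and to between 179 and 735 CPM in the other 9 libraries, and 9 of 9 rose in WT mice but 1 of 9 in Adm+/- mice. Mesothelial markers, led by Msln and Krt19, summed to between 340 and 586 CPM in WT LPS and between 257 and 436 CPM in the PBS libraries. Their sums in Adm+/- LPS were 271 to 362 CPM. The WT LPS and WT PBS ranges overlapped, and 1 of 7 mesothelial markers rose in each genotype. Lgr5 was highest in WT LPS 9 and 11 and Lgr4 in WT LPS 9, the libraries with the most squamous epithelium RNA. Without these 2 libraries, which leaves WT LPS 10 as the only LPS lung of its genotype and takes its spread from the other groups, Lgr4 changed by 0.57 (adjusted p = 0.156), Lgr5 by 0.79 (0.555) and Lgr6 by -0.55 (0.24). WT LPS 10, which was kept, held the most skeletal muscle RNA, and Lgr4 in WT LPS 11, at 22.9 CPM, was close to the 22.4 CPM of WT LPS 10. The part of the other tissues in these values was not tested.

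**Figure D3:**
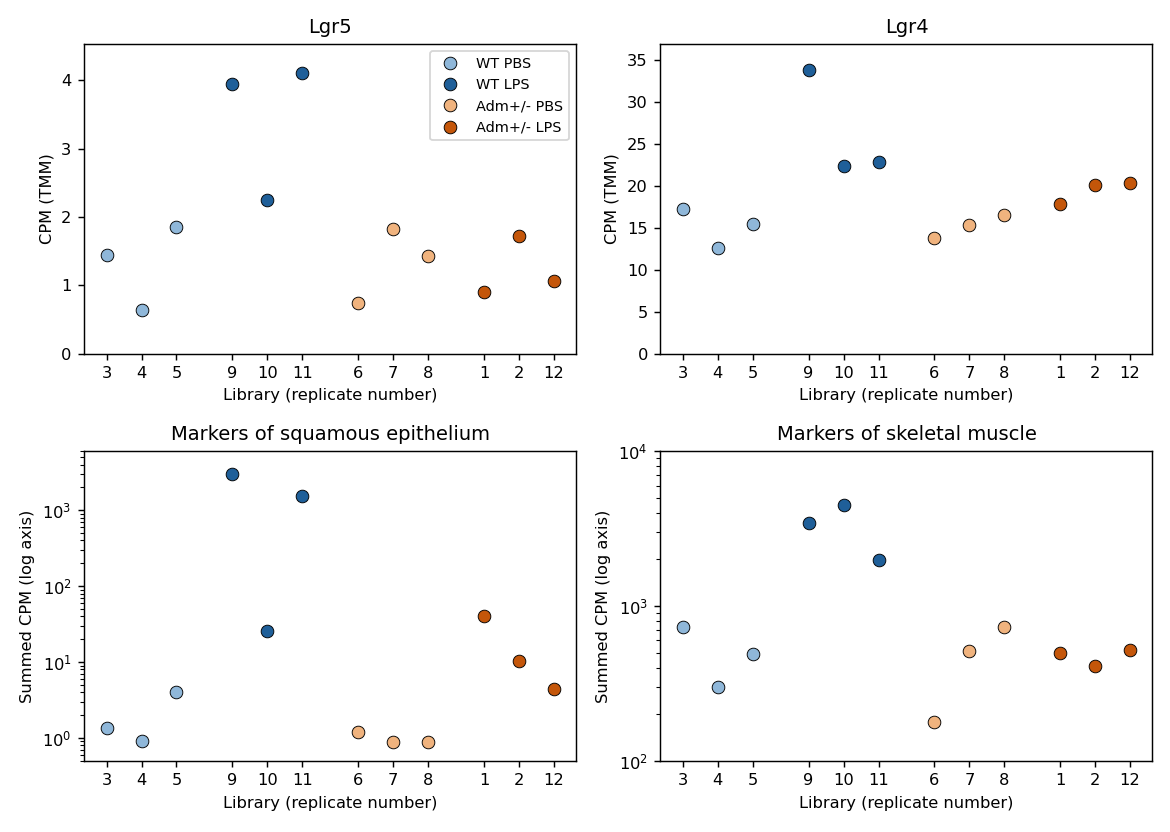
Lgr5 and Lgr4 in CPM on linear axes (top), and the summed CPM of the squamous epithelium and skeletal muscle markers on log axes (bottom), with 1 point per library in the same order. WT LPS 9 and 11 have the highest Lgr5 values, 3.94 and 4.10 CPM, and the highest sums of squamous epithelium markers, 2987 and 1524 CPM.

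As shares of the summed Lgr level per kb, Lgr6 took 73.9% ± 4.3 (SD, n = 3) in WT PBS and 50.1% ± 9.6 in WT LPS, and 73.1% ± 2.6 in Adm+/- PBS and 61.0% ± 3.8 in Adm+/- LPS. Lgr4 took 24.9% ± 4.2 and 46.4% ± 9.2 in WT mice, and 25.6% ± 2.0 and 37.6% ± 3.6 in Adm+/- mice. Lgr5 stayed at or below 4.24% in every library. The sum itself was 10.4 ± 1.78 CPM per kb in WT PBS and 9.59 ± 0.41 in WT LPS, and 10.1 ± 0.74 and 8.80 ± 0.33 in the Adm+/- groups, which did not overlap.

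Of the ligase genes, Znrf3 fell in Adm+/- mice, from 76.1, 76.2 and 83.7 CPM in PBS 6, 7 and 8 to 47.9, 47.8 and 49.3 CPM in LPS 1, 2 and 12. The log2 fold change was -0.70 ± 0.11 (adjusted p = 0.000971). In WT mice it measured 76.8, 61.4 and 73.6 CPM in PBS 3, 4 and 5 and 54.6, 53.6 and 66.9 CPM in LPS 9, 10 and 11, which overlap through WT LPS 11, with a change of -0.27 ± 0.11 (adjusted p = 0.105).

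Rnf43, the other ligase gene, fell in both genotypes. In Adm+/- lungs it measured 44.4, 32.2 and 38.4 CPM in PBS 6, 7 and 8 and 18.4, 18.6 and 19.8 CPM in LPS 1, 2 and 12, a log2 fold change of -1.01 ± 0.18 (adjusted p = 0.00167) that passed the threshold in all 23 alternatives. In WT mice it measured 35.03, 28.1 and 43.2 CPM in PBS 3, 4 and 5 and 21.9, 20.4 and 28.8 CPM in LPS 9, 10 and 11. The WT groups overlapped, and the change of -0.58 ± 0.18 (adjusted p = 0.0406) was past the threshold in only 10 of 23 alternatives. It was lost on leaving out WT PBS 3 (adjusted p = 0.0624), WT PBS 5 (0.115), WT LPS 9 (0.142), WT LPS 10 (0.116), Adm+/- PBS 8 (0.0565), or Adm+/- LPS 1 (0.0559), 2 (0.0529) or 12 (0.0584). Per kb of exon, Znrf3 made up 62.5% ± 3.4 of the summed level of both genes in WT PBS, 67.3% ± 1.3 in WT LPS, 63.1% ± 3.9 in Adm+/- PBS and 67.9% ± 0.5 in Adm+/- LPS.

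**Figure D4:**
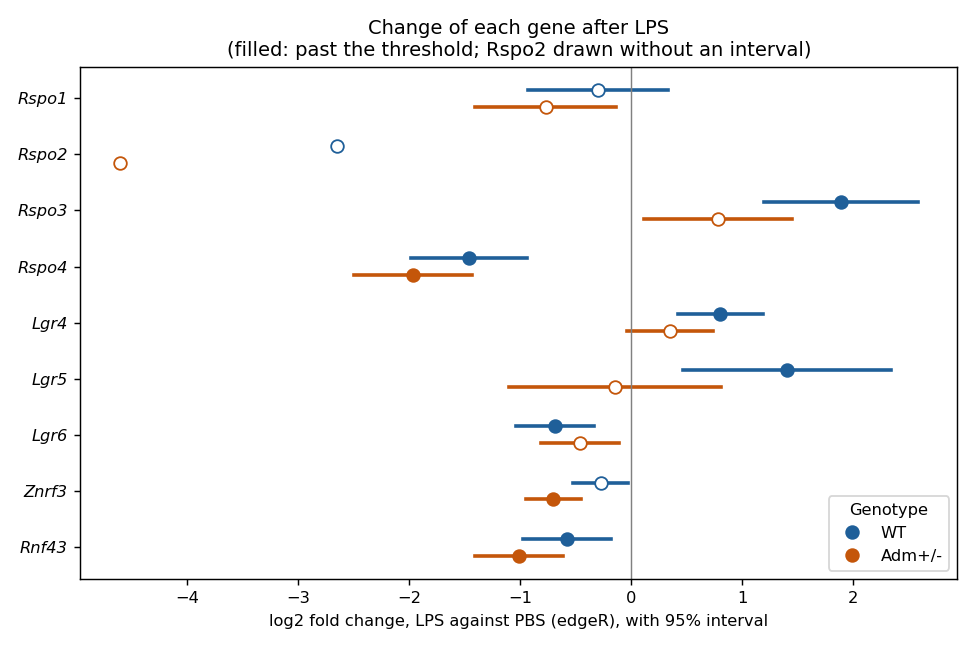
Log2 fold change of each gene, LPS against PBS, in WT (blue) and Adm+/- (orange) mice, with 95% intervals and filled points past the threshold; Rspo2 is drawn without an interval or a call. Rspo4 and Rnf43 are filled in both genotypes, Rspo3, Lgr4, Lgr5 and Lgr6 in WT only, and Znrf3 in Adm+/- only, while the difference between genotypes passed the threshold for none of the 8 tested genes.

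Whether the LPS effect differed between genotypes was tested directly. By DESeq2, 0 of the 8 genes passed, beside 168 genes in all. None of the 8 passed by edgeR's quasi-likelihood test, beside 23 genes in all, or 0.145% of all tested genes. At an unadjusted p below 0.05 there were 3 of 8, beside 7.85% of all tested genes: Lgr5, with a difference of -1.55 ± 0.61 on the log2 scale (SE, adjusted p = 0.531), Rspo3, with -1.11 ± 0.44 (0.544), and Znrf3, with -0.43 ± 0.16 (0.508). Lgr5 therefore passed the threshold in WT and not in Adm+/- mice without a difference between them that passed the test, and the same holds for Rspo3, Lgr4 and Lgr6, and the other way round for Znrf3.

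Genotype was also compared within each treatment. Under PBS, 0 of the 8 genes other than Rspo2 passed the threshold, 0 of 8 had an unadjusted p below 0.05, and 0% of all tested genes passed by edgeR or by DESeq2, although 2.17% had an unadjusted p below 0.05. Rspo3 was the only gene of the 8 without overlap, higher at 0.46 ± 0.35 on the log2 scale, beside 4.99% of all tested genes without overlap and 2.47% that were higher. Under LPS, 0 of the 8 passed by edgeR beside 2.05% of all tested genes, and 4 of the 8 had an unadjusted p below 0.05, beside 14.3% of all. By DESeq2, 1 of the 8 passed, in a test that called 803 genes in all, where edgeR called 325. The gene that passed by DESeq2 was Lgr5, lower in the 3 Adm+/- LPS lungs than in the 3 WT LPS lungs without overlap. The difference was -1.49 ± 0.42 (SE, edgeR adjusted p = 0.0958, DESeq2 adjusted p = 0.0197). Without WT LPS 9 and 11, the lungs richest in squamous epithelium RNA, the Lgr5 difference was -0.87 (edgeR adjusted p = 0.999). Lgr4 (-0.44 ± 0.17, adjusted p = 0.264), Rspo3 (-0.64 ± 0.28, 0.312), Znrf3 (-0.27 ± 0.11, 0.296) and Rnf43 (-0.32 ± 0.18, 0.481) were also lower without overlap, so 5 of the 8 genes did not overlap and all 5 were lower, beside 24.6% of all tested genes that did not overlap and 12.4% that were lower. The squamous epithelium and muscle RNA of the WT LPS lungs lies on the WT side of this comparison.

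Genes with which R-spondins and Lgr receptors work were read from 5 lists. Of 11 tested binding partners, 1 rose and 2 fell in WT mice and 3 rose and 2 fell in Adm+/- mice, with medians of -0.10 and -0.01 on the log2 scale, beside 10.5% of all tested genes that rose and 7.09% that fell in WT mice and 12.8% and 12.2% in Adm+/- mice. Ndp, which encodes norrin, a ligand of Fzd4 that also binds Lgr4, fell by 1.84 ± 0.34 (SE, adjusted p = 0.00403) in WT and by 2.51 ± 0.34 (0.000347) in Adm+/- mice. Its mean went from 2.38 to 0.676 CPM in WT and from 3.49 to 0.608 CPM in Adm+/- mice, so its LPS values were low. Its WT value was -1.21 (adjusted p = 0.154) without WT LPS 9 and 11. That setting, which leaves 1 WT LPS library, ended 15 of the 19 WT calls of genes named from the 5 lists, and Tnfrsf11a, Tspan12, Sfrp1 and Tnfrsf19 kept theirs. Tnfrsf11a, which encodes RANK, whose ligand also binds Lgr4, rose by 0.94 ± 0.12 (0.000573) and 1.08 ± 0.12 (0.000119). The proteoglycan genes parted: Sdc2 fell in both genotypes, by 0.62 and 0.58, whereas Sdc4, a syndecan that binds R-spondins, rose by 1.49 ± 0.24 (0.000977) in Adm+/- mice and measured 0.68 ± 0.24 (0.0627) in WT mice, where it passed by DESeq2 (0.029) and without WT LPS 11 (0.93, 0.00734). Iqgap1, a scaffold protein that binds Lgr4, rose in Adm+/- mice by 0.57 ± 0.11 (0.00218). In WT mice it measured 0.42 ± 0.11 (0.0171), short of the fold asked for. The Sdc2 calls were weak (adjusted p = 0.0414 and 0.0384): they were lost in 11 of 23 alternatives in WT mice, with 0.164 without WT LPS 9 and 0.103 without WT PBS 3, and in 7 of 23 in Adm+/- mice, with 0.136 without Adm+/- LPS 1 and 0.123 without Adm+/- LPS 12. The other single libraries that ended the call of Sdc2 were WT PBS 4, WT LPS 10 and 11, Adm+/- PBS 7 and 8 and Adm+/- LPS 12 in WT mice, and WT LPS 11 and Adm+/- PBS 7 and 8 in Adm+/- mice.

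Of the 19 Wnt receptors and co-receptors, 1 rose and 6 fell in WT mice and 1 rose and 5 fell in Adm+/- mice, with medians of -0.22 and -0.41, where 10.5% of all tested genes rose and 7.09% fell in WT and 12.8% and 12.2% in Adm+/- mice. These include the Frizzled receptors that Znrf3 and Rnf43 remove. Fzd7 fell by 0.93 ± 0.24 (adjusted p = 0.0173) and 1.34 ± 0.24 (0.00161), Fzd8 by 0.76 and 1.09, Fzd1 by 0.74 and 0.76, and Tspan12, a partner of Fzd4 in norrin signalling, by 0.76 and 0.99 in WT and Adm+/- mice respectively. Without WT LPS 9 the WT values of Fzd7 (-0.79, adjusted p = 0.0802) and Fzd8 (-0.66, 0.0689) missed the threshold, as did that of Fzd1 (-0.81, 0.0537) without WT LPS 9 and 11. Fzd10 rose in WT mice, by 1.59 ± 0.26 (0.00204), and measured -0.54 ± 0.27 (0.144) in Adm+/- mice. The difference of -2.13 ± 0.37 between these effects missed the threshold (adjusted p = 0.0614). Under LPS Fzd10 was lower in Adm+/- than in WT lungs by 1.84 on the log2 scale (adjusted p = 0.00417), at means of 1.56 and 5.59 CPM. In that comparison it was the only 1 of the 19 past the threshold, beside 2.05% of all tested genes. Of the other lists, 1 of the 15 tested Wnt antagonists was also lower. Both Fzd10 calls were lost without WT LPS 9 and 11, the lungs with 2987 and 1524 CPM of squamous epithelium markers, at 1.13 (adjusted p = 0.0992) after LPS in WT mice and -1.38 (0.154) between genotypes, and the part of the other tissues was not tested.

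Of 15 tested secreted and membrane Wnt antagonists, 3 rose and 3 fell in WT mice and 1 rose and 6 fell in Adm+/- mice, with medians of 0.23 and -0.07. The shares over all tested genes were 10.5% higher and 7.09% lower in WT and 12.8% and 12.2% in Adm+/- mice. Sfrp1, a secreted protein that binds Wnts, rose in both genotypes, by 1.78 ± 0.24 (adjusted p = 0.000801) and 1.44 ± 0.24 (0.00123). Trabd2b, a membrane protease that inactivates Wnts, fell by 1.09 and 1.25, and Wif1, another Wnt-binding protein, by 0.62 and 0.66. The WT value of Trabd2b was -1.14 (adjusted p = 0.0851) without WT LPS 9 and 11. Sost, which encodes sclerostin, a blocker of the Lrp co-receptors, fell by 3.42 ± 0.76 (0.00928) and 2.82 ± 0.85 (0.0267) from mean levels of 2.37 and 0.929 CPM. Sfrp2 fell in Adm+/- mice by 0.98 ± 0.23 (0.00835), and its WT value of -0.41 passed only without WT PBS 4 (-0.65, 0.0337). The Sost values rested on few libraries: the WT value was -2.27 without WT PBS 5 and missed the threshold without WT LPS 9 (adjusted p = 0.0525), and the Adm+/- call was lost without Adm+/- PBS 6 or 7 or any 1 of the Adm+/- LPS libraries (0.0532 to 0.0956). The WT value of Wif1 was -0.47 without WT LPS 9, under the fold that was asked for.

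In the beta-catenin machinery, 0 of 18 genes rose and 2 fell in WT mice and 1 rose and 4 fell in Adm+/- mice, with medians of -0.21 and -0.23, beside 7.09% of all tested genes that fell in WT and 12.2% in Adm+/- mice, and 10.5% and 12.8% that rose. Pygo1, a coactivator of beta-catenin, fell by 0.54 ± 0.11 (adjusted p = 0.00684) and 0.85 ± 0.11 (0.000286), and Ctnnbip1, an inhibitor of beta-catenin, by 0.51 ± 0.16 (0.0437) and 0.83 ± 0.16 (0.00293). The WT groups of Ctnnbip1 overlapped, and its WT call was lost in 14 of 23 alternatives, with -0.34 (0.125) without WT PBS 5, -0.40 (0.168) without WT LPS 9 and losses on leaving out any other library but WT PBS 4, WT LPS 11 and Adm+/- PBS 6. That of Pygo1 was under the fold asked for without WT PBS 3 (-0.44) or WT LPS 10 (-0.49). Tcf7l2, a TCF transcription factor, rose in Adm+/- mice by 0.71 ± 0.11 (0.000896) and measured 0.37 ± 0.11 (0.0382) in WT mice, short of the fold asked for. Tcf7l1 lay at that limit in both genotypes, at -0.48 ± 0.13 (0.0246) in WT and -0.51 ± 0.13 (0.0129) in Adm+/- mice, where the call was lost in 7 of 23 alternatives, among them RLE size factors, DESeq2 and leaving out Adm+/- PBS 6, Adm+/- LPS 2 or Adm+/- LPS 12. The WT value of Tcf7l1 passed without WT PBS 3 or 4 or WT LPS 10 or 11.

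Of 16 tested beta-catenin target genes, 2 rose and 4 fell in WT mice and 3 rose and 6 fell in Adm+/- mice, with medians of -0.32 and -0.35. Of all tested genes, 10.5% rose and 7.09% fell in WT mice and 12.8% rose and 12.2% fell in Adm+/- mice. Tnfrsf19, the TNF receptor family member also called Troy, fell by 1.497 ± 0.18 (adjusted p = 0.000467) and 2.06 ± 0.19 (6.4e-05). Ccnd1, which encodes cyclin D1, fell by 0.73 and 0.54, and Bambi, a decoy receptor for TGF-beta family ligands, by 0.85 and 0.91. Myc rose by 0.72 ± 0.20 (0.0256) and 1.39 ± 0.20 (0.000474) and Cd44, an adhesion receptor that is also abundant on leukocytes, by 0.70 and 1.08. Notum, an enzyme that removes the lipid of Wnts, fell in Adm+/- mice by 1.05 ± 0.25 (0.00885), and its WT value of -0.53 ± 0.25 (0.15) was -0.84 (0.0309) without WT LPS 11 and -0.32 without WT LPS 9. Several WT calls were lost without single libraries: Myc (0.45, adjusted p = 0.125), Cd44 (0.57, 0.152), Bambi (-0.72, 0.122) and Ccnd1 (-0.65, 0.0566) without WT LPS 9, Myc (0.68, 0.0592), Cd44 (0.4999, 0.0822) and Bambi (-0.51, 0.0751) without WT PBS 5, and Myc (0.0519) and Cd44 (0.0613) without WT PBS 4. Cd44 was also lost without WT LPS 10, Adm+/- PBS 8 or Adm+/- LPS 12. In Adm+/- mice Ccnd1 was lost without Adm+/- PBS 6 (-0.41, 0.109) or any 1 of the Adm+/- LPS libraries (0.0569 to 0.0945), and Bambi without Adm+/- PBS 6 (0.0574) or Adm+/- LPS 12 (0.0524). Axin2, which is widely read as a reporter of beta-catenin activity, did not pass the test, at -0.13 ± 0.14 (0.522) in WT and -0.36 ± 0.14 (0.0814) in Adm+/- mice, and neither did Lef1, at -0.37 ± 0.17 (0.144) and -0.23 ± 0.17 (0.341).

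**Figure D5:**
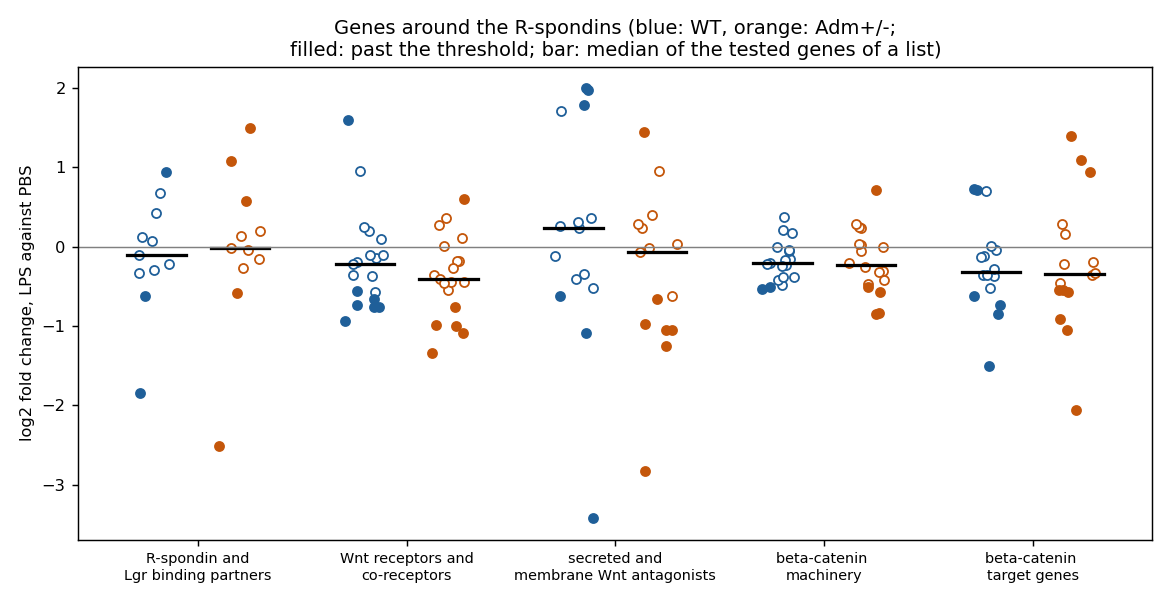
Log2 fold change after LPS of every tested gene of the 5 lists, in WT (blue) and Adm+/- (orange) mice, with filled points past the threshold and a bar at the median of each list. The medians lie between -0.41 and 0.23, and in each list open points outnumber filled ones except for the target genes in Adm+/- mice, where 9 of 16 are filled.

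The genes whose profile over the 12 libraries was most like that of Rspo2 were found by the root mean square difference of log2 CPM, each gene centred on its own mean, over 14600 genes with a mean of at least 1 CPM. They were Shisa2 (0.617 log2 units), which encodes a protein that keeps Fzd and FGF receptors from the cell surface, Lmo3 (0.639), a LIM-only transcription cofactor, Tmem74 (0.742), a membrane protein, Ptpn5 (0.753), a tyrosine phosphatase, and Slc27a6 (0.775), a fatty acid transporter. Lmo3 and Tmem74 reached the minimum mean through their PBS lungs: Lmo3 ran from 1.02 to 2.89 CPM after PBS and from 0.0838 to 0.333 CPM after LPS, and Tmem74 from 0.728 to 2.39 CPM and from 0.0616 to 0.790 CPM, so their LPS values rested on few reads. Shisa2 measured 55.0, 25.2 and 57.6 CPM in WT PBS 3, 4 and 5, 8.94, 11.9 and 21.9 CPM in WT LPS 9, 10 and 11, 61.4, 49.6 and 50.8 CPM in Adm+/- PBS 6, 7 and 8, and 3.89, 5.20 and 4.49 CPM in Adm+/- LPS 1, 2 and 12. As with Rspo2, WT PBS 4 was the lowest PBS lung and WT LPS 11 the highest LPS lung. Slc27a6, the most abundant of the 5 in CPM, measured 291, 224 and 306 CPM in WT PBS 3, 4 and 5, 49.8, 68.2 and 109.8 CPM in WT LPS 9, 10 and 11, 353, 317 and 317 CPM in Adm+/- PBS 6, 7 and 8, and 50.04, 56.0 and 46.0 CPM in Adm+/- LPS 1, 2 and 12. With profiles scaled to the same spread, 1 of the 5, Slc27a6, stayed among the nearest, beside Meox2, Runx1t1, Mcc and Tnfrsf19. Of the other members, Rspo4 came nearest, at the 49th place (1.13), Rnf43 at the 634th (1.53), and Lgr4 and Lgr5 were the farthest, at 2.21 and 2.23, while Rspo3 was below the minimum level.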

How the data were processed

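Whole-lung RNA of 12 mice was sequenced after ribosomal RNA depletion with a directional kit. The authors aligned reads to mm10 with HISAT2 (2.1.0) and deposited raw counts per Gencode gene from featureCounts (1.6.4), without normalization. The Gencode release and strand setting are not given in the sources used here; positions and exon lengths came from Gencode M21, which held 99.7% of the identifiers. Total counts were 22382535 to 38062873. Reads carry no molecular identifiers.

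Protein-coding genes that passed filterByExpr (15885 of 21950) entered TMM normalization and the quasi-likelihood F-test of edgeR 4.0.16 (R 4.3.3), with 1 coefficient per group, no covariate and Benjamini-Hochberg adjustment over all tested genes. SE was the log2 fold change divided by the root of F. Log2 CPM used a prior count of 2. The script was tested on simulated data. No pair of replicates held identical counts. Alternatives used DESeq2 1.42.0 and limma 3.58.1. Named genes were the members, up to 4 genes per list and genotype with the smallest p among those past the threshold, Axin2 and Lef1, the 5 profiles nearest to Rspo2, and the leading markers. The genotype comparisons had been planned over all 9 genes, and Rspo2 was taken out after its values were seen, because they share the libraries of the fall that chose it. Members and lists were chosen with earlier results of these data known. Proteins, and promoters of Rspo2, Rspo3, Lgr5 and Znrf3, were not analysed here.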

Additional observations from a re-analysis of the deposited data

How the results depend on the processing

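No paired analysis was possible because the replicate numbers are library numbers that no 2 groups share. In WT mice, where 6 of 8 genes passed the threshold after LPS, the count was 2 when tested against a fold (glmTreat), 2 with only the libraries of the comparison, 1 without WT LPS 9 and 11 together (chosen after seeing the data) and 3 to 6 when single libraries were left out, with the lowest count without WT LPS 9. In Adm+/- mice it was 3, with 2 under glmTreat, 4 with DESeq2 and with only the libraries of the comparison (Rspo1 added), 4 by adjusted p alone (Lgr6 added), and 3 to 4 when single libraries were left out. Under LPS the genotype count of 0 of the 8 genes became 1 with DESeq2 (Lgr5) and stayed 0 with any single library left out. Scaled profiles left 1 of 5 nearest genes. The cause was not tested.

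Values that changed sign had missed the threshold. Over all annotated genes the genotype difference under PBS was -0.0213 for Rspo1 and -0.0075 for Lgr4. Without WT PBS 5 and Adm+/- PBS 6 together, Axin2 in WT mice was 0.039 and Lgr6 between genotypes under PBS 0.11. With single libraries left out, the genotype difference under PBS ran from -0.20 to 0.29 for Rspo1, from -0.10 to 0.12 for Lgr4, from -0.27 to 0.37 for Lgr5, from -0.15 to 0.13 for Lgr6 and from -0.029 to 0.28 for Rnf43, and the LPS effect in Adm+/- mice from -0.46 to 0.15 for Lgr5, and that in WT mice from -0.23 to 0.039 for Axin2.

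Of all genes called, 2791 passed in WT mice, but 1001 under glmTreat, 1152 with only the libraries of the comparison, 1443 without WT LPS 9 and 759 without WT LPS 9 and 11, and 3968 passed in Adm+/- mice, but 1695 under glmTreat. The difference between genotypes had 23 genes, 168 with DESeq2, 1 with limma-voom, 13 with glmTreat and 5 to 65 with single libraries left out. Under LPS the genotypes differed in 325 genes, 803 with DESeq2, 133 with glmTreat, 548 without WT PBS 5 and Adm+/- PBS 6, 107 without WT LPS 9 and 11, and 81 to 573 with single libraries left out. Depth limits Rspo3, at 3 to 34 counts per library, Rspo2 under LPS, at 15 to 90, and Lgr5, at 13 to 128.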
